A study of Caenorhabditis elegans with 2 samples.

Results

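The proteasome subunit genes of Caenorhabditis elegans were taken as all nuclear protein-coding genes of the Ensembl WBcel235 annotation with symbols beginning pas-, pbs-, rpt- or rpn-, which gave 33 of 19973 such genes. The 33 comprised 7 pas genes, 7 pbs genes, 6 rpt genes and 13 rpn genes. For each gene the strongest MEL-28 peak summit was sought from 1000 bp before to 500 bp after the annotated 5′ end, here called the 5′ window, and genes with no summit there were kept. The membership rule used no measured value.

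The proteasome degrades proteins marked with ubiquitin. Its 20S core is a stack of alpha rings (pas genes), which gate entry, around beta rings (pbs genes), some of whose subunits cut peptide bonds. The 19S particle caps the core: a base holds the ring of ATPases (rpt genes) that unfold substrates with several non-ATPase subunits, and a lid of further rpn subunits removes ubiquitin. In C. elegans the transcription factor SKN-1 is known to raise proteasome gene expression when the proteasome is impaired. MEL-28, the worm relative of ELYS, is a nuclear pore and kinetochore protein that contacts chromatin.

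Chromatin immunoprecipitation with sequencing (ChIP-seq) was made with an antibody against GFP from 1 strain, OP646, which carries the unc-119(tm4063) allele and the transgene wgIs646 from which MEL-28 is made fused at its C terminus to GFP and FLAG. The animals were whole young adults of mixed sex, collected 64 h after synchronisation from starved L1 larvae, in 2 biological replicates. The samples used here form 1 group, so nothing below is a difference between conditions and no test was made, and tissues cannot be told apart in whole animals. The 4 peak lists used were on the ce11 build. Relaxed lists held 23774 nuclear peaks for replicate 1, 19576 for replicate 2 and 17005 for the pooled replicates, and a list thresholded for reproducibility held 369, which were the 369 strongest of the pooled list. The signal of a peak is the depositors' value, on a scale that no label or header states, so it is compared within a list. A percentile below is the rank of a gene's strongest signal among all protein-coding genes that had a summit in the same list, with 100 the strongest. Peak lists hold no read counts, so depth is unknown, and they hold no expression, so stage and tissue were not checked against markers.

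The stretches of sequence under the summits that the results turn on are shown first. They are the 5 strongest pooled summits of proteasome genes that lay outside every annotated gene and off the first chromosome. Each has up to 75 bases on either side, shortened at the edge of an annotated gene. They are written 5′ to 3′ on the strand of the named gene, from the RefSeq WBcel235 sequence, which is the ce11 assembly. Capitals mark matches to the SKN-1 core (GTCAT or ATCAT) and to the heat shock element GAANNTTC, each searched on both strands.
rpn-3 (chrIII:8447096-8447216, plus strand): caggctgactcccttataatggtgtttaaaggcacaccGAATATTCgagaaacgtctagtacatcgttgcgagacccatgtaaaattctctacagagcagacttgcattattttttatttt
rpn-11 (chrII:4044547-4044632, minus strand): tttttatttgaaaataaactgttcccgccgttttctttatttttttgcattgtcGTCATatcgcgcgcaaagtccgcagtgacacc
rpt-1 (chrV:11982432-11982582, minus strand): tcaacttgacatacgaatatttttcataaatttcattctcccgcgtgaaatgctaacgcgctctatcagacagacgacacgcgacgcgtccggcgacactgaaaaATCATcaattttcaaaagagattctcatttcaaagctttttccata
rpt-3 (chrIII:6489459-6489609, plus strand): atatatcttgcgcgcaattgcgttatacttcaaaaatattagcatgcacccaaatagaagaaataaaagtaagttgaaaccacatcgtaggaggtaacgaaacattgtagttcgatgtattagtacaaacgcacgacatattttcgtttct
pbs-1 (chrIV:1709817-1709967, minus strand): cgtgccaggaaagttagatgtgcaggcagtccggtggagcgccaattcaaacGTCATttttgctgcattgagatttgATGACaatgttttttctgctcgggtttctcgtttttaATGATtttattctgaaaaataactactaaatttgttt

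A summit lay in the 5′ window of most proteasome genes in the relaxed lists and of rpn-3 alone in the reproducible list. In the pooled list 22 of 33 proteasome genes (66.7%) had a summit, beside 28.2% of all protein-coding genes. In replicate 1 the count was 23 (69.7%) beside 37.1%, and in replicate 2 it was 25 (75.8%) beside 30.5%. Both replicates had a summit for 19 genes (57.6%), beside 18.1% of all genes. In the reproducible list the count was 1 of 33 (3.03%) beside 1.22%. Every one of these counts is a description of the 33 genes and was not tested.

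The 22 pooled summits of proteasome genes were 22 distinct peaks, so no member shared its strongest peak with another. All 3 lists held a summit for 17 genes, and 5 more had a pooled summit with a summit in 1 replicate. These counts take a summit anywhere in the window, so the lists need not mark the same place. Of the genes without a pooled summit, rpt-5 and pbs-7 had summits in both replicates, pas-2 and pas-6 in replicate 1 and pas-3, rpn-6.2 and rpn-7 in replicate 2. No list held a summit in the windows of pbs-4, pbs-6, rpn-1 and rpt-4, 4 of 33 genes (12.1%), beside 49.0% of all protein-coding genes.

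The signals were moderate. Among the 22 genes with a pooled summit the median signal was 48.8, at a median percentile of 69.9, and the median over all 5627 genes with one was 40.6. Of the 22, 17 lay above that median. The median percentile was 64.6 over 23 genes in replicate 1 and 61.7 over 25 genes in replicate 2. These medians leave out the genes without a summit.

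**Figure D1:**
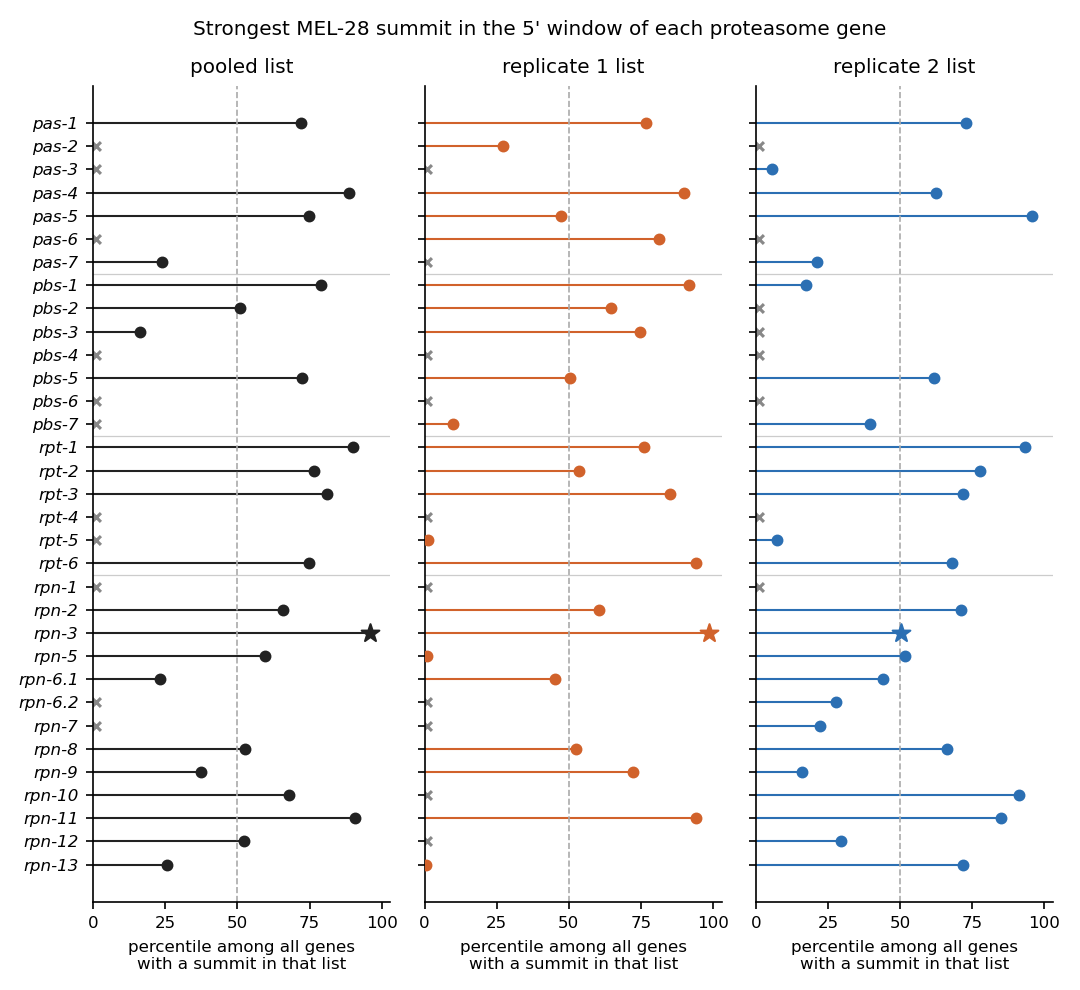
Percentile of the strongest summit of each of the 33 proteasome genes among all protein-coding genes with a summit, in the pooled, replicate 1 and replicate 2 lists. Stars mark rpn-3, the proteasome gene with a reproducible peak, crosses mark genes with no summit in that list, the dashed line is the 50th percentile, and grey lines divide pas, pbs, rpt and rpn genes. Replicate 1 places rpn-3 at 98.6 and replicate 2 at 50.2.

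Proteasome genes also sit in crowded neighbourhoods. Another protein-coding gene began within the window of 23 of 33 proteasome genes (69.7%), against 21.6% of all protein-coding genes. Among genes with such a neighbour 60.9% of proteasome genes and 38.3% of all genes had a pooled summit. Among genes without one a pooled summit was present for 8 of 10 proteasome genes and 25.4% of all genes. The share of proteasome genes was the higher in both classes, although 10 genes are few. A gene on the same strand ended within 500 bp upstream of 8 proteasome genes (24.2%, beside 18.1% of all genes), and 7 of these 8 had a pooled summit, beside 33.7% of all genes so placed. None of the 33 lies on the X chromosome, which holds 13.7% of protein-coding genes. The pooled share exceeded that of all genes of the same chromosome on chromosomes I (6 of 10, beside 34.6%), II (6 of 7, beside 26.6%), III (6 of 8, beside 34.8%) and V (3 of 5, beside 23.2%). On chromosome IV a pooled summit was present for 1 of 3 genes (33.3%) beside 28.0%, and 3 genes are too few to call a difference.

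The share depended on how many peaks were counted. Among the 1000 strongest nuclear pooled peaks 3 proteasome genes had a summit (9.09%), beside 3.04% of all genes. Among the 5000 strongest 13 did (39.4%), beside 11% of all genes. Replicate 1 gave 11 genes (33.3%, beside 11.2%) and replicate 2 gave 10 (30.3%, beside 10.0%) at 5000 peaks. Both of those sets held 5 of 33 proteasome genes, beside 4.72% of all genes. Among the 369 strongest peaks of replicate 1 the gene was rpn-3, and among those of replicate 2 there was none.

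**Figure D2:**
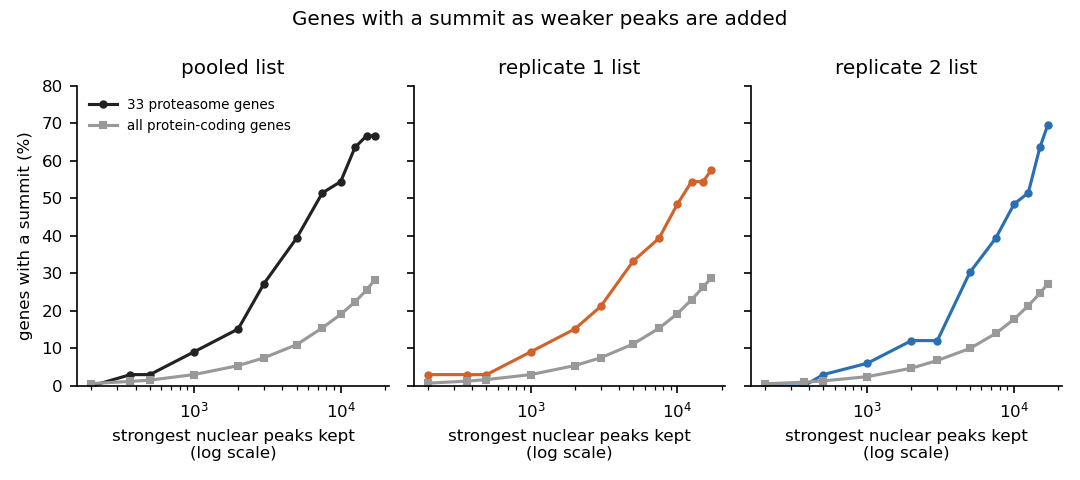
Percent of genes with a summit in the 5′ window (y axis) as more of the strongest nuclear peaks are kept (x axis, log scale), for the 33 proteasome genes (circles) and all 19973 protein-coding genes (grey squares), in each relaxed list. At 5000 peaks the proteasome genes stood at 39.4%, 33.3% and 30.3% in the pooled, replicate 1 and replicate 2 lists, and all genes at 11%, 11.2% and 10.0%.

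Summits of proteasome genes lay mostly upstream, as did those of all genes. The window itself reaches 1000 bp upstream and 500 bp downstream, which favours upstream positions. In the pooled list 17 of 22 (77.3%) were before the 5′ end, beside 70.6% of all genes with a summit, and 12 of 22 (54.5%) were within 300 bp of it, beside 51.3%. The median position was -211 bp, negative values being upstream, beside -198 bp over all genes. In replicate 1, 20 of 23 (87.0%) were upstream, beside 69.9%, 14 (60.9%) were within 300 bp, beside 48.8%, and the median was -201 bp, beside -207 bp. In replicate 2, 18 of 25 (72.0%) were upstream, beside 68.5%, 11 (44.0%) were within 300 bp, beside 47.4%, and the median was -146 bp, beside -206 bp. The share upstream thus stood above that of all genes by the most in replicate 1 and by little in replicate 2. The share within 300 bp was above that of all genes in the pooled list and replicate 1 and below it in replicate 2. The pooled list was made from the same 2 replicates, the gene counts are small, and these differences were not tested. By annotation 9 of the 22 summits lay outside annotated genes. The others lay in coding exons, introns, a 3′ UTR or noncoding genes.

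**Figure D3:**
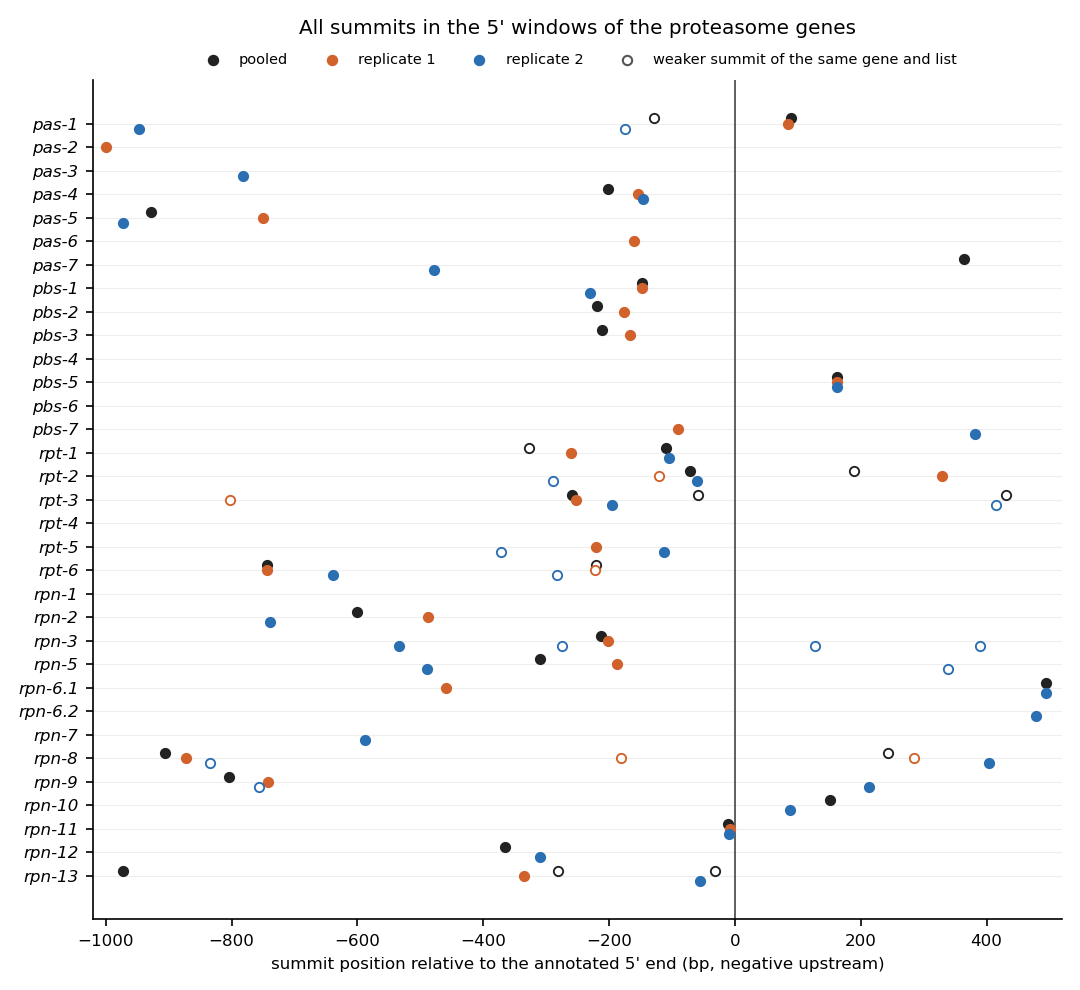
Every summit in the 5′ windows of the 33 proteasome genes by position relative to the annotated 5′ end (x axis, bp), in the pooled (black), replicate 1 (orange) and replicate 2 (blue) lists. Filled points are the strongest summit of a gene in that list and open points weaker ones. The 3 summits of rpn-11 fall from -11 to -7 bp.

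The 20S alpha ring genes had a pooled summit in 4 of 7 cases (28.2% of all genes), a replicate 1 summit in 5 (37.1%) and a replicate 2 summit in 5 (30.5%). The highest by pooled signal was pas-4 (WBGene00003925, chromosome I, 8727218 to 8728487), with 68.9 in the pooled list, 33 in replicate 1 and 28.8 in replicate 2. Its summits lay at -201, -154 and -146 bp, so the replicates were 8 bp apart. The pooled summit was in an exon of the ncRNA gene C36B1.16 and 76 bp from the 5′ end of rpb-3, which encodes an RNA polymerase II subunit and is nearer than pas-4. For pas-5 (WBGene00003926, chromosome I, 10566350 to 10567300) the signals were 51.9 pooled, 18.9 in replicate 1 and 53.2 in replicate 2. The pooled summit was at -928 bp, inside an exon of the snoRNA gene F25H2.15, and the replicate summits at -750 and -972 bp were 222 bp apart. The replicate 2 value was the highest of any proteasome gene in that replicate (percentile 95.7), while replicate 1 placed the gene at 47.4. For pas-1 (percentile 71.9) the pooled summit lay 89 bp inside the gene, in an intron. Its replicate 1 summit was at 85 bp and its strongest replicate 2 summit at -947 bp. For pas-7 (33.9, percentile 24.0) the pooled summit lay at 364 bp, in a coding exon. The only replicate summit of pas-7 was elsewhere, at -479 bp in replicate 2 (21.5). The summits of pas-6 (27.5, replicate 1), pas-2 (16.3, replicate 1) and pas-3 (19.6, replicate 2) were each in a single replicate.

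The 20S beta ring genes had a pooled summit in 4 of 7 cases (28.2% of all genes), a replicate 1 summit in 5 (37.1%) and a replicate 2 summit in 3 (30.5%). The highest was pbs-1 (WBGene00003947, chromosome IV, 1708814 to 1709745), with 55.4 in the pooled list, 35.1 in replicate 1 and 20.9 in replicate 2. Its summits were at -147, -147 and -230 bp in that order, in the gap between pbs-1 and K08D12.3. Replicate 1 ranked it at percentile 91.5 and replicate 2 at 17.4. The stretch printed for pbs-1 holds 3 SKN-1 core matches, at -170 to -166, -145 to -141 and -108 to -104 bp, the first of which overlaps a match to the cAMP response element core TGACGT. The mammalian counterpart of pbs-5 (WBGene00003951, chromosome I, 14719167 to 14720477) carries a peptide-cutting active site. The summit for pbs-5 lay at 163 bp in the pooled and both replicate lists, in a coding exon of pbs-5, with signals of 50.3, 19.3 and 28.6. For pbs-7 there was no pooled summit, and the replicate summits were 14.4 at -91 bp in replicate 1 and 24.2 at 382 bp in replicate 2. The remaining pooled summits, of pbs-2 (40.9) and pbs-3 (32.2), had a replicate 1 counterpart at 21.9 and 24.9 and none in replicate 2. That of pbs-3 was in the 3′ UTR of ulp-2, which ends 23 bp before pbs-3 on the same strand. Of the members with no summit, pbs-4 had its nearest pooled, replicate 1 and replicate 2 summits 1089, 508 and 1196 bp away, and pbs-6 had them 6569, 1284 and 6617 bp away.

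The ATPase genes of the 19S base had a pooled summit in 4 of 6 cases (28.2% of all genes). A summit was present for 5 of 6 in replicate 1 (37.1% of all genes) and for 5 of 6 in replicate 2 (30.5%). For rpt-1 (WBGene00004501, chromosome V, 11980534 to 11982397) the signals were 71.9 pooled, 25.2 in replicate 1 and 47.6 in replicate 2, at -110, -260 and -104 bp. The pooled summit was outside annotated genes with no other gene's window over it, and rpt-1 was at percentiles 90.2, 76.1 and 93.2. The printed stretch has a SKN-1 core match at -80 to -76 bp. For rpt-3 (WBGene00004503, chromosome III, 6489793 to 6491282) the signals were 57.3, 29.3 and 31.7 at -259, -252 and -196 bp, also outside annotated genes, and percentiles were 81.1, 84.9 and 71.7. At both genes each replicate's signal was above the median of genes with a summit. The stretch printed for rpt-3 has no SKN-1 core or heat shock element match.

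For rpt-2 (WBGene00004502, chromosome V, 6016059 to 6017669; signal 53.6 pooled, 19.8 in replicate 1, 34.6 in replicate 2) the pooled summit at -71 bp was in an exon of the ncRNA gene F29G9.10. It also lay 230 bp before the 5′ end of aps-1, a clathrin adaptor subunit gene. The replicate 1 maximum was elsewhere, at 329 bp, with a weaker summit of 17.7 at -120 bp. For rpt-6 (WBGene00004506, chromosome III, 12370456 to 12372607; 51.9, 39.7 and 30.2) the strongest summits were at -744, -743 and -639 bp. The pooled summit lay 662 bp from the 5′ end of his-72, which encodes histone H3.3, and was nearer to it than to rpt-6. A weaker pooled summit of 38.0 at -221 bp had counterparts of 35.1 at -222 bp in replicate 1 and 26.8 at -283 bp in replicate 2. Signals for rpt-5 were near the bottom of both replicates (13.6 and 19.8, percentiles 1.29 and 7.34). For rpt-4, with no summit in the window, the nearest pooled summit was 1033 bp away.

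The non-ATPase genes had a pooled summit in 10 of 13 cases, beside 28.2% of all genes. The base genes rpn-1, rpn-2, rpn-10 and rpn-13 are set apart here from the 9 lid genes, of which 7 had a pooled summit (28.2% of all genes), 6 a replicate 1 summit (37.1%) and all 9 a replicate 2 summit (30.5%). Among the lid genes rpn-3 and rpn-11 had the highest pooled signals of all 33 proteasome genes.

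rpn-3 (WBGene00004460, chromosome III, 8447353 to 8449346), which encodes a structural subunit of the lid, had the only reproducible peak. The peak (chrIII:8446926-8447355) had signal 93.7 and a summit at -212 bp, outside annotated genes. The lowest nuclear signal in the reproducible list was 92.7, and this peak ranked 355 among the 369. The next proteasome gene below that limit was rpn-11 with 74.0. The 2 replicates differed at rpn-3. Replicate 1 had 1 summit there, with signal 63.3 at -201 bp (percentile 98.6), the highest value of any proteasome gene in that replicate. Replicate 2 had 4 weaker summits, with signals of 26.1 at -534 bp, 25.1 at 127 bp, 23.8 at 390 bp and 20.8 at -274 bp. The replicate 2 summit closest to that of replicate 1 was thus 73 bp away and the weakest of its 4.

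The rpn-3 summit lies between divergent protein-coding genes. The 5′ end of hsp-110, which encodes a relative of the HSP70 chaperones, was 232 bp from the summit on the other side. The ncRNA gene C30C11.14 was within 500 bp. The peak overlaps the edge of that gene, next to where the printed stretch begins. The printed rpn-3 stretch has a heat shock element match at -219 to -212 bp, ending at the base of the pooled summit. Over promoters from 250 bp before to 50 bp after the 5′ end, this element was found for 5 of 33 proteasome genes (15.2%) and 18.6% of all genes. The match is a description of the letters and no evidence of binding by a factor.

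rpn-11 (WBGene00004467, chromosome II, 4043055 to 4044546) encodes the deubiquitinase of the lid, which removes ubiquitin chains from substrates. It had signals of 74.0 pooled, 39.2 in replicate 1 and 38.8 in replicate 2, at percentiles 90.9, 94.0 and 85.1. The summits were at -11, -7 and -9 bp. Among the 10 proteasome genes with the highest pooled signal it was the only one with both replicates above percentile 80, and its peak was not in the reproducible list. The pooled summit lay outside annotated genes and in no other protein-coding gene's window, although K07D4.2 begins within the window of rpn-11. The printed rpn-11 stretch holds a SKN-1 core match at -32 to -28 bp.

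The other lid genes had lower signals, and several of their summits belonged by position to a neighbour. For rpn-5 (43.8) the pooled summit was 16 bp inside scc-1, which encodes a cohesin subunit, and for rpn-12 (41.3) it was 29 bp before rad-23, which encodes a shuttle for ubiquitinated proteins. For rpn-8 (41.4) it was in a coding exon of mrps-6 and for rpn-9 (37.0) in a coding exon of T06D8.9. A second pooled summit of 39.5 lay 243 bp inside rpn-8. At rpn-8 replicate 1 was strongest at -873 bp (19.7), with 18.7 at 285 bp. Replicate 2 was strongest there at 404 bp (29.8), with 22.1 at -834 bp. For rpn-6.1 (33.6) the summit was 495 bp inside the gene, at the far end of the window. Its paralogue rpn-6.2 had a summit in replicate 2 alone (22.4 at 479 bp), as did rpn-7 (21.6 at -588 bp).

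Among the non-ATPase genes of the base, rpn-10 (WBGene00004466, chromosome I, 10730712 to 10732424), which encodes a ubiquitin receptor, had signal 47.6 in the pooled list and 44.7 in replicate 2 (percentile 91.3) and no summit in replicate 1, whose nearest lay 1360 bp away. For rpn-2 (46.7 pooled, 21.0 in replicate 1, 31.5 in replicate 2) the pooled summit at -601 bp was 169 bp from C23G10.7. For rpn-13, another ubiquitin receptor, the strongest pooled summit of 34.2 at -973 bp was in a coding exon of C56G2.9. Weaker pooled summits lay at -31 bp (29.9) and -281 bp (29.3). The replicate summits were elsewhere, at -335 bp in replicate 1 (13.6, percentile 0.621) and -56 bp in replicate 2 (31.7, percentile 71.7). The scaffold gene rpn-1 had no summit within 1982 bp of its 5′ end in any list used here.

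Neighbouring genes could claim many of these summits. The proteasome gene had the nearest protein-coding 5′ end for 14 of 22 pooled summits (63.6%), beside 82.4% of all genes with a summit, and 14 of 22 lay in the window of another protein-coding gene as well. The summits with a nearer neighbour were those of pas-4, rpt-6, rpn-2, rpn-5, rpn-8, rpn-9, rpn-12 and rpn-13. When every summit in a list was given only to the nearest protein-coding 5′ end, 17 proteasome genes had a pooled summit, beside 23.9% of all genes. Which gene of a pair the MEL-28 signal belongs to was not tested. Within 500 bp of the pooled summit, a tRNA, snoRNA or snRNA gene was annotated for 1 proteasome gene and an ncRNA gene for 4.

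The replicates placed some summits together and others far apart. Of the 19 genes with summits in both replicates, 10 had a pair within 100 bp, beside 1697 of 3608 among all genes. Counting genes without summits too, the shares were 30.3% of the 33 proteasome genes and 8.50% of all genes. Those shares also carry the gap in having summits in both replicates (57.6% beside 18.1%). The 10 genes were pbs-5, rpn-11, pas-4, rpn-9, rpn-8, rpt-3, rpt-2, rpt-6, rpn-3 and pbs-1. Summits of the pooled list and both replicates lay within 100 bp of each other for 10 genes as well. That is 30.3% of 33 beside 7.87% of all genes, or 10 of 19 beside 1571 of 3608. The smallest distance between replicate summits had a median of 83 bp over 19 proteasome genes and 112 bp over 3608 genes. At the other end were pbs-7 (473 bp) and rpn-6.1 (953 bp). The strongest signals of the 19 genes in the 2 replicates had a Spearman rho of 0.172, beside 0.405 over the 3608 genes. The points share a control, a genome annotation and in places a peak, and the smaller value rests on 19 genes.

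**Figure D4:**
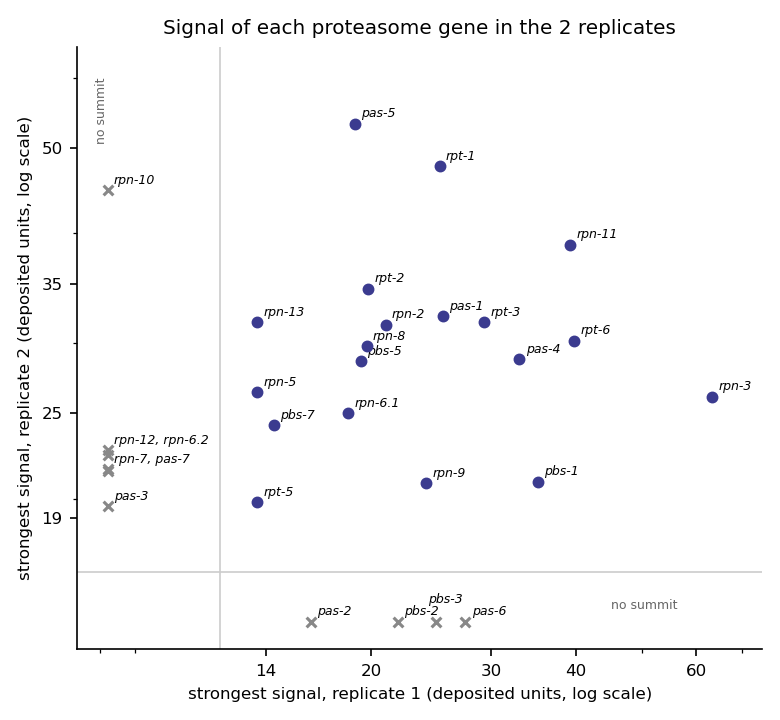
Strongest signal of each proteasome gene in replicate 1 (x axis) and replicate 2 (y axis), in deposited units on log scales that differ between the lists. Crosses outside the grey lines are genes with a summit in 1 replicate, and the 4 genes with none are left out. The gene rpn-3 is highest in replicate 1 (63.3) and pas-5 in replicate 2 (53.2).

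The promoters of the 33 genes were read for short motifs, from 250 bp before to 50 bp after the 5′ end on both strands. GTCAT was present in 20 proteasome gene promoters (60.6%) and in 39.6% of all protein-coding promoters, and ATCAT in 19 (57.6%) and 55.8%. The TATA box TATAAA was in 10 (30.3%) and 38.0%, GAGAGA in 6 (18.2%) and 21.8%, the E-box CACGTG in 1 (3.03%) and 5.84%, and TGACGT in 5 (15.2%) and 10.4%. A run of 8 T, TTTTTTTT, was in 4 (12.1%) and 32.5%. GTCAT was found for 13 of the 22 genes with a pooled summit, close to the share over all 33. The GC content of these promoters had a median of 34.2%, the same as over all genes, and the repeat-masked share was 41.9% beside 31.6%.

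Genes that work with the proteasome but fall outside the symbol rule were read in the same way. They were 23 genes for ubiquitin and its activation, proteasome-associated factors and deubiquitinases, shuttles, CDC-48 with its cofactors, and SKN-1 with enzymes that process it. Of these, 13 had a pooled summit (56.5%, beside 28.2% of all genes) and 2 a reproducible summit (8.70%, beside 1.22%). A replicate 1 summit was present for 15 (65.2%, beside 37.1%) and a replicate 2 summit for 14 (60.9%, beside 30.5%). The pooled summit of rad-23 was the peak also counted for the proteasome gene rpn-12. The pooled summits of aip-1 and ubq-2 were nearer to the 5′ ends of ddx-17 and frg-1. The reproducible summits were those of cdc-48.1 and ubq-1. For cdc-48.1, which encodes an ATPase that pulls ubiquitinated proteins out of complexes, the signals were 170 pooled, 79.7 in replicate 1 and 81.6 in replicate 2, at -158, -158 and -177 bp. The pooled value exceeded that of every proteasome subunit gene. For ubq-1, the polyubiquitin gene, they were 95.3, 22.3 and 106, at -265, -627 and -261 bp. Replicate 2 was thus high and replicate 1 was not, and the strongest replicate 1 summit was at another place. The next highest was ubql-1, a ubiquilin gene, with 74.9 pooled. For skn-1 itself the signals were 61.4, 32.2 and 29.0, at -77, -86 and -116 bp. The genes dss-1, a further lid subunit, psme-3, a proteasome activator, png-1, npl-4.1, npl-4.2 and chn-1 had no summit in any list.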

How the data were processed

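The authors' deposited peak lists in narrowPeak layout on ce11 were used: the signal of each peak and its summit, as deposited. Per the manifests beside the deposited files, the 2 replicates were called against the same control, the pooled list used the alignments of both, and the reproducible list was drawn from the other 3 by irreproducible discovery rate. The aligner, the peak caller and their thresholds were not given in the sources used here. Lists on ce10 and the control were not analysed here. Summits (column 2 plus column 10, made 1-based) were set against Ensembl release 115, and sequence came from RefSeq WBcel235, where the first coding codon of 99.7% of protein-coding genes read ATG and 0 peaks ended beyond a chromosome. The assignment of summits was tested on simulated data. The lists hold no read counts, so depth and its precision are unknown.

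The members, gene list, motifs and alternatives were chosen with earlier results of these data known. Named genes were every gene with a reproducible summit, the 10 with the highest pooled signal, the 3 highest per replicate, the highest of each class, genes with no summit, genes sharing a named summit, and pathway genes with a reproducible summit or the 3 highest pooled signals. Other members are given with their values to account for all 33. Python 3.11.15, numpy 2.4.6 and scipy 1.17.1 were used.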

Additional observations from a re-analysis of the deposited data

How the results depend on the processing

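Counts of proteasome genes with a summit kept within 1.5 times of the main count under the other windows, peak overlap, nearest-gene and transcript-start settings in all lists, and without small RNA peaks (added after seeing the data; 21 pooled, 1 reproducible). They moved with stricter lists. With the strongest 5000 peaks the pooled, replicate 1 and replicate 2 counts were 13, 11 and 10 (all genes 11%, 11.2% and 10.0%), both replicates 5 (all genes 4.72%), and pathway genes 8, 8 and 7. With the strongest 1000 they were 3, 3 and 2 (all genes 3.04%, 3.03% and 2.49%), both replicates 0 (all genes 1.22%), and pathway genes 4, 1 and 4. The reproducible count was 0 among peaks with signals in the upper part of that list, above its median. No reproducible list could be made from 1 replicate, so the 369 strongest peaks of each relaxed replicate list were read in its place. They held 1 proteasome gene, rpn-3, in replicate 1 (1.30% of all genes) and 0 in replicate 2 (1.01%). No pooled list was remade with 1 replicate left out. The replicate lists themselves, already given above, held 23 genes in replicate 1 and 25 in replicate 2. The share of all genes fell to 24.5% and 19.3% for replicates 1 and 2 in the window of 500 bp upstream to 250 bp downstream. The median position was -147 bp in that window, -483 bp with 2000 bp upstream and -71 bp with nearest genes only. The replicate lists alone gave -201 bp in replicate 1 and -146 bp in replicate 2, as above. The median percentile was 61.9 with 2000 bp upstream and 73.8 with nearest genes only, and 64.6 and 61.7 in the replicate 1 and replicate 2 lists alone. Reading 1000 bp upstream for motifs gave GTCAT in 29 proteasome genes (87.9%), beside 76.7% of all genes. It gave ATCAT in 32 proteasome genes (91.1% of all genes), TATAAA in 26 (75.5%), GAGAGA in 13 (45.7%) and CACGTG in 5 (15.2%). GAANNTTC was in 23 (51.2%), TGACGT in 13 (27.6%) and TTTTTTTT in 15 (69.2%). The causes were not tested. No paired analysis was possible because there is 1 group. Unknown depth limits what absence of a summit can mean.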
